A study of Sus scrofa with 6 samples.

Results

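Xenobiotic metabolism in newborn piglet liver was followed through 32 listed genes: oxidising and hydrolysing enzymes of phase 1, conjugating enzymes of phase 2, and the receptors NR1I2 and NR1I3. The genes were chosen by name, and the tables' identifiers were matched to Ensembl pig symbols. Of the 32, 13 had a row among the 26733 in the tables. Of those 13, 11 reached 1 FPKM (fragments mapped to a gene, relative to its length and to the size of the library) or more in at least 3 of the 6 libraries and were tested among 10901 genes: 7 of phase 1, 2 of phase 2 and both receptors. CYP2A19 and ADH4 had a row but stayed under that minimum. The other 19 were matched to no row by name and are not analysed here. They are CYP2B22, CYP2C33, CYP2C34, CYP2C36, CYP2C42, CYP2C49, CYP2D25, CYP3A22, CYP3A29, CYP3A39 and CYP3A46 among the cytochromes P450, the P450 reductase POR, the glutathione transferases GSTA1, GSTA2 and MGST1, the glucuronosyltransferases UGT2B31 and UGT1A6, and the sulfotransferases SULT1A1 and SULT2A1. The account therefore covers 2 of 13 listed cytochromes P450, of which only CYP2E1 was tested. By name it covers none of the listed glucuronosyltransferases or sulfotransferases. SULT1A3, a row with SULT1A1 as another name, is described further on.

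The liver handles drugs, dietary chemicals and many endogenous lipids in stages. Phase 1 enzymes introduce or expose a reactive group by oxidation or hydrolysis, and phase 2 enzymes attach glutathione, glucuronate or sulfate so that the product can be excreted. NR1I2 (the pregnane X receptor) and NR1I3 (the constitutive androstane receptor) are nuclear receptors that switch on many of these genes when foreign compounds arrive. In mammals much of this machinery is set up around birth, and individual enzymes follow different schedules.

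The study compared piglets born to sows on 2 tryptophan schedules. High-Low sows were given a morning meal containing 0.39% tryptophan and an afternoon meal containing 0.13%. For 2×Trp sows both meals contained 0.26%. Each diet had 3 liver libraries from newborn Landrace x Yorkshire piglets, and no genetic modification or drug is named for either. Whether the libraries of a diet stem from different piglets or litters is not stated in the labels, so p-values describe only the spread between these libraries, and that spread may be technical.

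Per-library FPKM totals ran from 956426 to 1230288 in High-Low and from 1080050 to 1215059 in 2×Trp, and read depth is unknown. Of 10 hepatocyte markers 9 had a row, and their summed level was 42508 to 65463 FPKM in High-Low and 44069 to 59661 in 2×Trp. AHSG, a major plasma protein of hepatocytes, is listed at 0 in all 6 libraries, so a 0 in these tables may be a failed estimate. The kidney markers UMOD and NPHS1 are also listed at 0. Across all genes tested, limma called 1 gene higher in High-Low (0.00917%) and 0 lower (0%) at an adjusted p under 0.05. At an unadjusted p under 0.05 it found 136 higher (1.25%) and 209 lower (1.92%). The gene called is an unnamed feature that is none of the 32.

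CYP2E1, FMO1 and EPHX1 had the highest levels of the 11 tested genes, at percentiles 98.0, 97.4 and 96.8 of the genes tested by mean FPKM. CYP2E1 averaged 671 ± 239 FPKM over the 6 libraries, FMO1 494 ± 120 and EPHX1 388 ± 76.7 (SD, n = 6). The per-library ranges of these 3 genes overlapped, so their order is not fixed beyond the spread between libraries. A middle group held ALDH1A1 at 95.5 ± 47.5, EPHX2 at 95.4 ± 26.7 and GSTA4 at 61.3 ± 21.4 FPKM. The receptor NR1I2 averaged 27.9 ± 6.22 FPKM and the monooxygenase FMO5 22.6 ± 8.07, again with overlapping ranges. NR1I3 (6.41 ± 3.01), GSTM3 (5.72 ± 4.15) and AOX1 (1.104 ± 0.621) had the lowest levels. The tables list lengths from 141 for ALDH1A1 to 3508 for FMO5, and no label says which length went into each value, so levels between genes are less certain than levels of a gene between libraries. Together the 11 genes held 0.122% to 0.202% of a library's FPKM total.

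CYP2E1 (ENSSSCG00000010780, chromosome 14, 153477961 to 153490404 in susScr3), which oxidises ethanol, acetone and other small molecules, had FPKM of 921, 580 and 698 in High-Low libraries 1, 2 and 3, against 284, 920 and 621 in the 2×Trp libraries. Library 2×Trp 1 stood lowest and the groups overlapped. The log2 fold change, taken on log2(FPKM + 1) as High-Low minus 2×Trp throughout, was 0.40 with a 95% interval from -0.59 to 1.39 (limma, adjusted p = 0.998). Without 2×Trp replicate 1 it was -0.07. CYP2A19, a P450 of the CYP2A subfamily that clears skatole in the pig, is listed at no more than 0.456 FPKM in any library.

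ALDH1A1, a cytosolic aldehyde dehydrogenase that makes retinoic acid from retinal, had 154, 47.0 and 99.9 FPKM in High-Low and 41.8, 145 and 85.0 FPKM in 2×Trp. Both diets thus spanned about the same range, and the log2 fold change was 0.16 (95% interval -1.13 to 1.45). Without 2×Trp replicate 1 or High-Low replicate 1 its sign turned (-0.30 and -0.22). AOX1, a molybdenum enzyme that oxidises aldehydes and nitrogen heterocycles, passed the minimum in only 3 libraries. It had 1.69, 0.311 and 1.87 FPKM in High-Low, against 0.788, 0.639 and 1.33 FPKM in 2×Trp. High-Low 2 was lowest, and the groups overlapped. An unnamed row on the opposite strand lies within AOX1 with 1.61 to 15.2 FPKM, against 0.311 to 1.87 for AOX1. No label states a strand setting, so AOX1's values are uncertain. ADH4, an alcohol dehydrogenase, is listed at 0 in High-Low 3 and 2×Trp 1 and at no more than 0.575 FPKM elsewhere.

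Flavin-containing monooxygenases add oxygen to nitrogen and sulfur atoms of drugs and dietary amines, without a P450. FMO1 (ENSSSCG00000015268, chromosome 9, 70137792 to 70171698 in susScr3) was the most abundant of them. In High-Low it had 423, 328 and 535 FPKM, against 527, 466 and 685 FPKM in 2×Trp. High-Low 3 lay above 2 of the 3 2×Trp libraries, so the groups overlapped. Its log2 fold change was -0.39 (SE 0.25, 95% interval -0.97 to 0.18). It was -0.21 without High-Low replicate 2 and -0.24 without 2×Trp replicate 3. FMO5, whose human form acts mainly as a Baeyer-Villiger oxidase, had 24.1, 9.61 and 30.1 FPKM in High-Low and 20.1, 20.1 and 31.9 FPKM in 2×Trp. High-Low 2 alone lay well below the rest. The log2 fold change of FMO5 was -0.27, and 0.19 without High-Low replicate 2. Among members of the family outside the 32 genes, FMO4 had 2.76 to 3.75 FPKM in High-Low and 1.48 to 3.13 in 2×Trp. FMO2, the lung form in many mammals, is listed at 0 in 5 libraries and at 0.0321 FPKM in 2×Trp 2.

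Of the 11 genes, EPHX2 alone separated the diets. It encodes soluble epoxide hydrolase, which opens epoxides of fatty acids such as arachidonic acid. EPHX2 (ENSSSCG00000009666, chromosome 14, 12397750 to 12473597 in susScr3) had 80.5, 68.6 and 67.3 FPKM in High-Low libraries 1, 2 and 3, against 107, 125 and 124 FPKM in the 2×Trp libraries. Every High-Low library lay below every 2×Trp library. This arrangement held for 1 of the 11 genes and for 4.12% of all genes tested. The opposite arrangement held for none of the 11.

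The log2 fold change of EPHX2 was -0.71 (SE 0.18, 95% interval -1.13 to -0.29), a level in High-Low of 0.611 times that in 2×Trp. The unadjusted p was 0.00475 and the adjusted p 0.998 (limma), so EPHX2 did not pass the threshold. By unadjusted p it ranked 38 among 10901 genes. Of the 11 it alone had an unadjusted p under 0.05 in the main limma fit, against 1.25% of all genes tested higher and 1.92% lower. Its fold change stayed between -0.79 and -0.62 over 14 alternatives in scaling, filter, pseudocount, variance model, replicate block and left-out library, with adjusted p from 0.344 to 1.00. The spread of EPHX2 within diets was small. Its SD within groups was 0.13 on the log2 scale, smaller than that of most genes of similar level (percentile 8.95 of 1117 genes within 1 log2 unit). The lower EPHX2 in High-Low was already known when the list was drawn up. Neither it nor the small spread within diets is therefore independent evidence.

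EPHX1 is the microsomal epoxide hydrolase, which opens epoxides of drugs and aromatic hydrocarbons. It had 516, 361 and 419 FPKM in High-Low and 349, 392 and 289 FPKM in 2×Trp. The groups overlapped and the log2 fold change was 0.33 (SE 0.21, 95% interval -0.17 to 0.82). Without High-Low replicate 1 it was 0.19 and without 2×Trp replicate 3 it was 0.21. EPHX1 shares part of its span with TMEM63A on the opposite strand, which had 1.86 to 4.58 FPKM. A ratio within a library is free of library-wide scaling. EPHX2 over EPHX1 was 0.156, 0.190 and 0.160 in High-Low, against 0.306, 0.319 and 0.430 in 2×Trp. The mean log2 ratio differed by -1.05, a ratio in High-Low of 0.484 times that in 2×Trp, and the groups did not overlap. EPHX2 by itself already separated the diets, and EPHX1 had a fold change of opposite sign. The ratio is therefore no evidence apart from EPHX2.

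**Figure D1:**
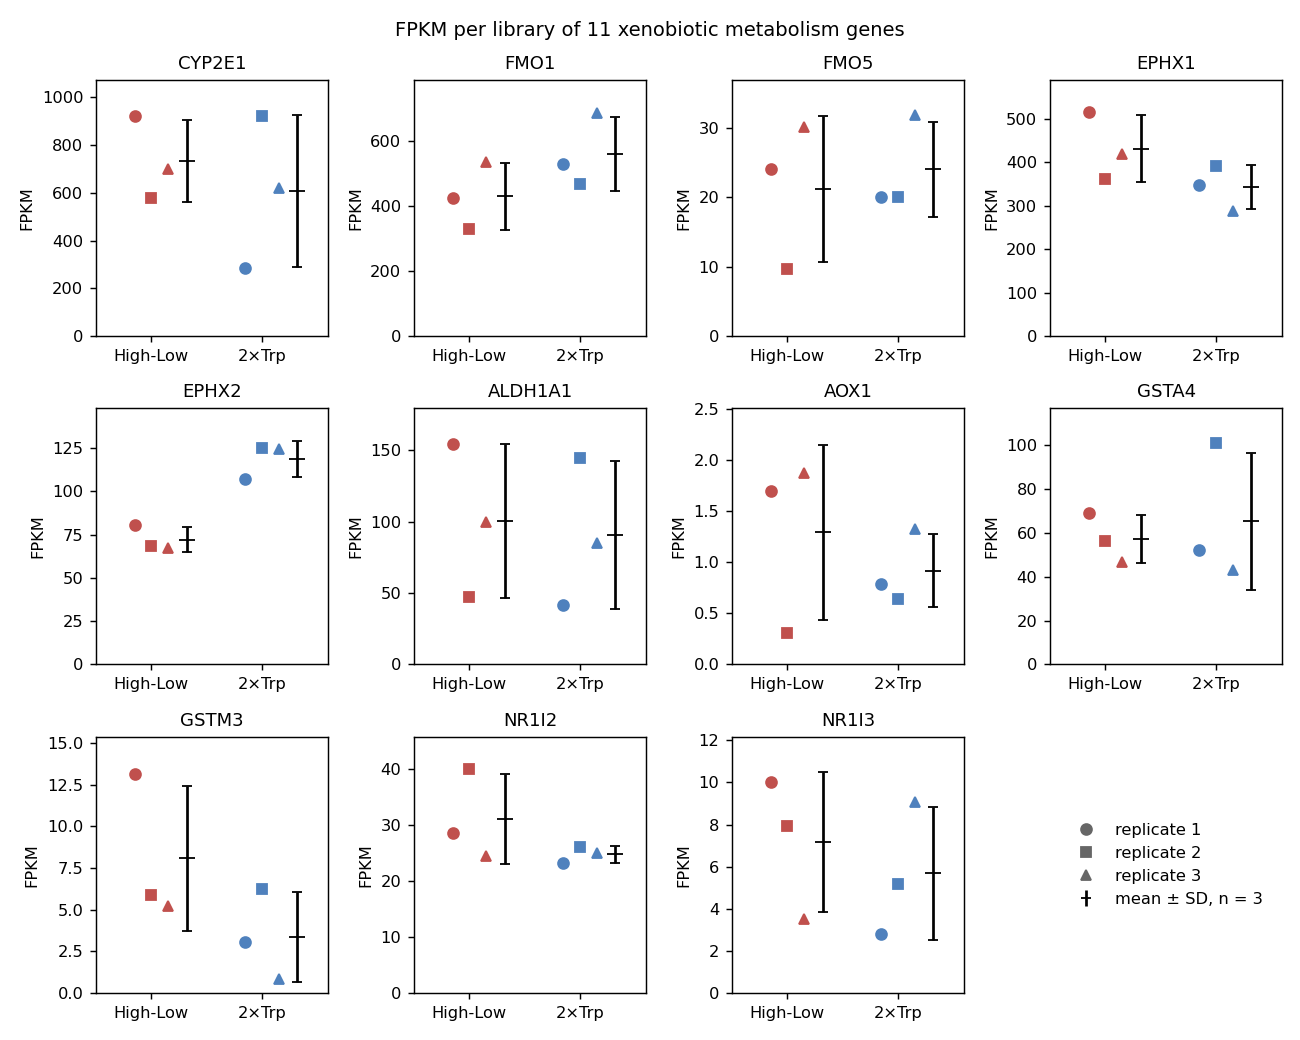
FPKM (vertical axes, linear, starting at 0) of the 11 tested genes in each library, High-Low left and 2×Trp right, with a symbol per replicate number and black bars for mean ± SD (n = 3). EPHX2 is the gene whose 3 High-Low values (67.3 to 80.5) all lie below its 3 2×Trp values (107 to 125), while the other genes overlap between diets.

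Fold changes of most macrophage, endothelial and erythroid markers were negative, and those of neutrophil markers positive. Of 5 tested macrophage markers 4 were negative, and their summed FPKM was 246 to 444 in High-Low and 413 to 572 in 2×Trp. All 8 tested endothelial markers were negative, with sums of 99.0 to 190 FPKM in High-Low and 167 to 199 in 2×Trp. The 5 tested erythroid genes were negative too, with sums of 1817 to 7199 FPKM in High-Low and 6170 to 15892 in 2×Trp. All 6 tested neutrophil markers were positive, with sums of 39.2, 157 and 47.1 FPKM in High-Low libraries 1, 2 and 3 and 33.7 to 53.1 in 2×Trp. Only High-Low 2 lay above the 2×Trp range. For each of these 4 lists the summed ranges of the diets overlapped. Mitochondrial transcripts held 5.83% to 10.02% of the FPKM total in High-Low and 3.48% to 5.20% in 2×Trp. The part of these differences in the values of EPHX2 was not tested. With each library scaled to the FPKM total of its nuclear genes, an alternative chosen after seeing the data, the EPHX2 fold change was -0.65. In bulk liver RNA, fewer cells of a type and less RNA per cell cannot be told apart.

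GSTA4, a glutathione transferase of phase 2 that conjugates the lipid peroxidation product 4-hydroxynonenal, had 68.8, 56.2 and 46.8 FPKM in High-Low and 52.1, 101 and 42.9 FPKM in 2×Trp. Library 2×Trp 2 lay far above the rest. Its log2 fold change was -0.10 (95% interval -0.89 to 0.68), and it was 0.25 without 2×Trp replicate 2. GSTM3, a mu class transferase, had 13.1, 5.88 and 5.23 FPKM in High-Low, against 3.05, 6.22 and 0.826 FPKM in 2×Trp. High-Low 1 was highest and 2×Trp 3 lowest, a 15.9-fold range that was the widest of the 11 genes. Its log2 fold change was 1.17 (SE 0.54, 95% interval -0.09 to 2.43, limma unadjusted p = 0.0646). Without 2×Trp replicate 3 it was 0.65 and without 2×Trp replicate 2 it was 1.64. Over the 14 alternatives the unadjusted p of GSTM3 in limma ran from 0.0140 to 0.200, with an adjusted p of at least 0.435. GSTM3 belongs to a family of similar genes, so reads may have been divided among copies. The ratio of GSTM3 to GSTA4 was 0.190, 0.105 and 0.112 in High-Low and 0.0585, 0.0616 and 0.0192 in 2×Trp, without overlap.

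SULT1A3, a row for which RefSeq's Sscrofa11.1 table gives SULT1A1 as another name, was looked up after the matching by symbol. It had 2.66 to 5.87 FPKM in High-Low and 3.15 to 6.35 in 2×Trp, with a log2 fold change of 0.002.

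In all, 7 FPKM ratios were compared, chosen after the values were seen, of which 5 are given here. The diets did not overlap for EPHX2 over EPHX1, where EPHX2 alone already separated them, and for GSTM3 over GSTA4. The exact two-sided permutation p of both was 0.1, the smallest that 3 against 3 libraries allow, and 0.175 after adjustment over the 7 ratios. The other 3 (FMO5 over FMO1, NR1I3 over NR1I2 and CYP2E1 over ALDH1A1) had exact permutation p from 0.8 to 1.

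**Figure D2:**
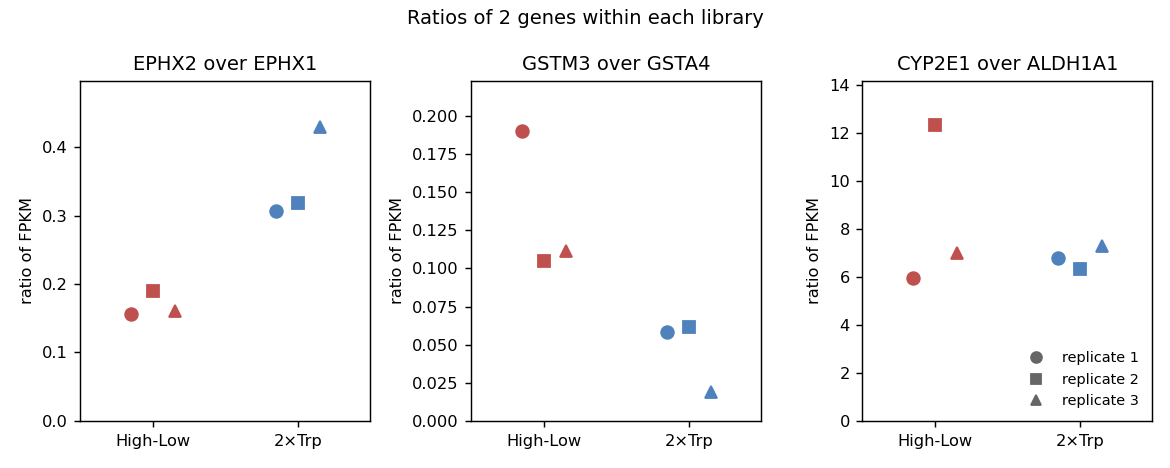
FPKM of a gene divided by that of another in the same library (vertical axes, linear, starting at 0), High-Low left and 2×Trp right, with a symbol per replicate number. In the first and second panels the diets do not overlap (EPHX2 over EPHX1 is at most 0.190 in High-Low and at least 0.306 in 2×Trp), and in the third CYP2E1 over ALDH1A1 stands at 12.3 in High-Low 2 and between 5.97 and 7.30 in the other 5 libraries.

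Both receptors were expressed in every library. NR1I2 (ENSSSCG00000011890, chromosome 13) had 28.6, 40.0 and 24.5 FPKM in High-Low and 23.1, 26.0 and 25.1 FPKM in 2×Trp. Apart from High-Low 2 the libraries lay close together. Its log2 fold change was 0.29 (SE 0.22, 95% interval -0.23 to 0.81), and it was 0.10 without High-Low replicate 2. NR1I3 (ENSSSCG00000006353, chromosome 4) had 10.01, 7.94 and 3.51 FPKM in High-Low and 2.80, 5.16 and 9.07 FPKM in 2×Trp. Values within each diet spanned nearly the whole range, and the log2 fold change was 0.30 (SE 0.45, 95% interval -0.76 to 1.36). Without 2×Trp replicate 1 it was -0.05. NR1I3 shares part of its span with TOMM40L on the opposite strand, which had 2.34 to 5.45 FPKM, so the 2 genes' reads may not be separate.

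Between the diets, 0 of the 11 genes passed the threshold in limma (adjusted p = 0.998 for each), against 1 of all 10901 genes tested (0.00917%). The fold changes were positive for 7 and negative for 4, with a median of 0.19. Over all genes tested 5391 were positive and 5510 negative, with a median of -0.004. Among the 11 genes the intervals of CYP2E1, FMO5, EPHX2, NR1I3, ALDH1A1 and GSTM3 reached beyond 1 or -1, so differences larger than 2-fold lie within them.

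**Figure D3:**
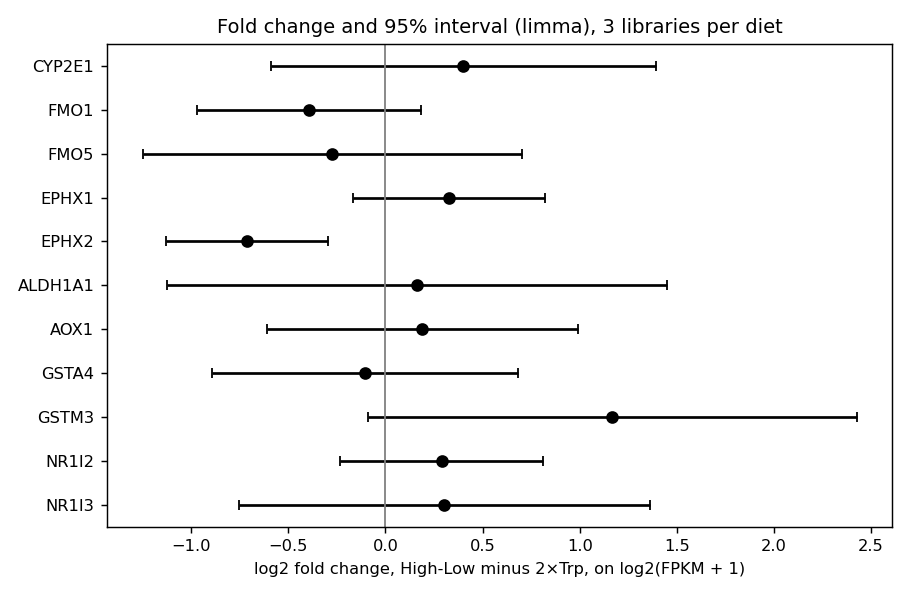
Log2 fold change, High-Low minus 2×Trp on log2(FPKM + 1) (horizontal axis), of the 11 tested genes, with 95% intervals from limma (3 libraries per diet). The interval of EPHX2 (-1.13 to -0.29) lies below 0, and the other 10 intervals include 0.

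For 10 of the 11 genes the diets overlapped, and libraries of the same diet lay far apart for several. CYP2E1 ranged 3.24-fold over the 6 libraries, ALDH1A1 3.69-fold, NR1I3 3.57-fold, FMO5 3.32-fold and AOX1 6.02-fold. EPHX1 (1.78-fold), NR1I2 (1.73-fold) and EPHX2 (1.86-fold) varied least. ALDH1A1, GSTM3 and CYP2E1 also varied more within diets than most genes of similar level (percentiles 94.9, 94.3 and 90.3). High-Low 1 held the highest value of 5 genes and the lowest of none. Library 2×Trp 1 held the lowest value of 4 genes and the highest of none. High-Low 2 was lowest for FMO1, FMO5 and AOX1, and highest for NR1I2.

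**Figure D4:**
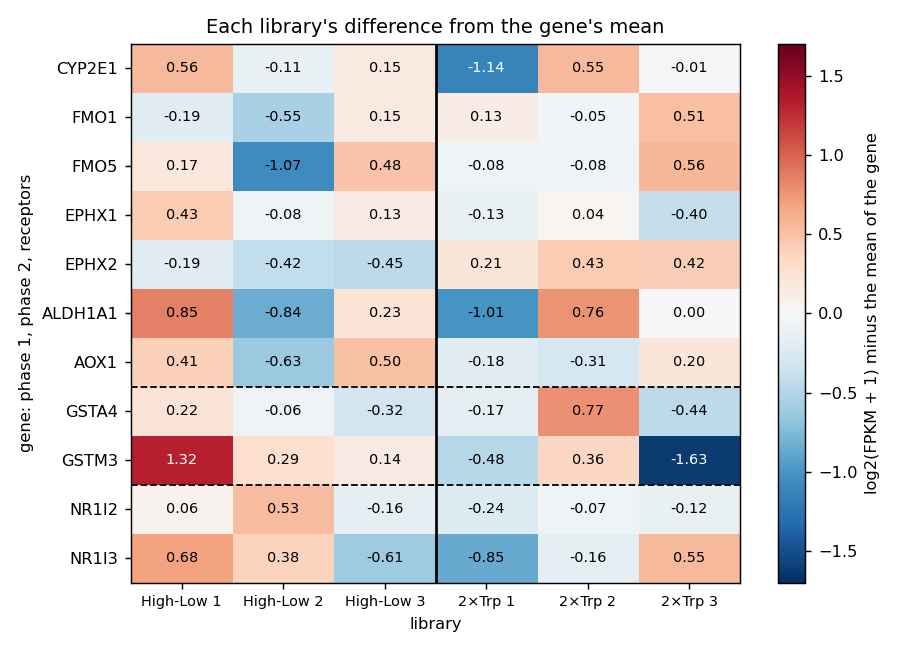
Log2(FPKM + 1) of each library (columns, High-Low left of the line and 2×Trp right) minus the gene's mean over the 6 libraries (colour and printed value) for the 11 tested genes in rows. CYP2E1 and ALDH1A1 share their order, lowest in 2×Trp 1 (-1.14 and -1.01) and highest in High-Low 1 (0.56 and 0.85), and the EPHX2 row changes sign between the diets.

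CYP2E1 and ALDH1A1 placed the 6 libraries in the same order, from 2×Trp 1 through High-Low 2, 2×Trp 3, High-Low 3 and 2×Trp 2 up to High-Low 1. This order alternates between the diets. Spearman's rho was 1 (exact permutation p = 0.00278, adjusted p = 0.153 over 55 pairs) and Pearson's r was 0.89 (exact permutation p = 0.00139, adjusted p = 0.0764). Without the 2 libraries farthest from the CYP2E1 median r was 0.90, and after removal of each diet's mean it was 0.91. The same order of libraries was found for 115 of the other 10900 genes tested (1.06%), so it was not particular to ALDH1A1. That share exceeds the exact permutation p of Spearman's rho (0.00278). The permutation takes all orders of the libraries as equally likely, so this p may be too small. No other pair of the 11 genes had an adjusted permutation p under 0.3. FMO5 and AOX1 had the next smallest p (r = 0.87, rho = 0.77, exact permutation p = 0.0111 and 0.103, adjusted p = 0.306 and 0.565), and r was 0.91 without the 2 farthest libraries.

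Around the 32 genes, 9 wider lists of the same pathway named 155 symbols, of which 84 had a row and 70 were tested. Limma called 0 of the 70. Fold changes were positive for 41 and negative for 29, with a median of 0.09, against -0.004 over all genes tested. At an unadjusted p under 0.05, 1 gene was higher and 2 were lower (EPHX2 and NNMT), that is 1 and 2 of 70 against the 1.25% and 1.92% of all genes tested. The 3 High-Low libraries lay entirely above 2×Trp for 4 of the 70 genes (PON1 and PAPSS2 among them) and entirely below for 4 (EPHX2, MAOB, NQO2 and NNMT), against 3.06% and 4.12% of all genes tested.

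Phase 1 enzymes other than P450s were balanced, with 11 of 23 positive and a median of -0.01 that ranged from -0.10 to 0.035 with single libraries left out. Those of the highest level included the mitochondrial aldehyde dehydrogenase ALDH2, at 410 ± 59.3 FPKM in High-Low and 438 ± 28.2 in 2×Trp (SD, n = 3 each). All 3 tested P450s were positive. CYP1A1, a target of the receptor AHR, had 3.99 ± 2.54 FPKM in High-Low and 1.93 ± 2.45 in 2×Trp. Its log2 fold change was 0.91, and between 0.50 (without 2×Trp replicate 1) and 1.56 (without 2×Trp replicate 2) with single libraries left out. CYP1A2, another AHR target, had 17.1, 4.99 and 2.53 FPKM in High-Low and 1.69, 5.52 and 2.45 FPKM in 2×Trp. High-Low 1 stood far above the rest, and the log2 fold change of 0.89 was 0.23 without it. The median of the 3 P450s, 0.89, was likewise 0.23 without High-Low replicate 1. AHR itself reached 1 FPKM in 1 library and was not tested. CYB5A, the cytochrome b5 that passes electrons to P450s, had 192 ± 51.5 FPKM in High-Low and 187 ± 52.3 in 2×Trp, and its reductase CYB5R3 had 64.0 ± 37.0 FPKM in High-Low and 79.1 ± 19.6 in 2×Trp.

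Among phase 2 genes, 5 of 6 glutathione transferases were negative, with a median of -0.10 and GSTM3 as the exception. Leaving out High-Low replicate 3 gave a median of 0.024, and leaving out 2×Trp replicate 3 gave -0.23. GSTO1 was the most abundant of them, at 591 ± 76.3 FPKM in High-Low and 630 ± 13.5 in 2×Trp. GSTO2, the non-listed transferase of smallest p, had 0.685 ± 0.724 FPKM in High-Low and 1.58 ± 1.18 in 2×Trp. NNMT, which methylates nicotinamide and pyridines, had 80.3, 34.96 and 61.0 FPKM in High-Low, against 121, 121 and 101 FPKM in 2×Trp. The diets did not overlap for NNMT, with a log2 fold change of -1.02 (SE 0.31, limma unadjusted p = 0.0120, adjusted p = 0.998). PAPSS2, which makes the sulfate donor of sulfotransferases, had 21.7 ± 1.04 FPKM in High-Low and 17.4 ± 1.28 in 2×Trp. UGP2, which makes UDP-glucose on the way to the glucuronate donor, had 45.3 ± 29.6 FPKM in High-Low and 34.2 ± 15.6 in 2×Trp.

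Receptors and regulators were mostly positive, at 14 of 16 with a median of 0.20 that ranged from 0.16 to 0.29 with single libraries left out. HNF4A, a hepatocyte transcription factor, had 63.6 ± 1.91 FPKM in High-Low and 59.3 ± 21.5 in 2×Trp. PPARA, the fatty acid receptor, had 4.11 ± 1.57 FPKM in High-Low and 2.26 ± 0.974 in 2×Trp. RXRA, the partner of both listed receptors, was matched to no row by name and is not analysed here. Of 9 hepatic transporters 5 were positive, with a median of 0.10. That median turned to -0.030 without High-Low replicate 2, and it was 0.020 without 2×Trp replicate 3 and 0.19 without High-Low replicate 3.

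**Figure D5:**
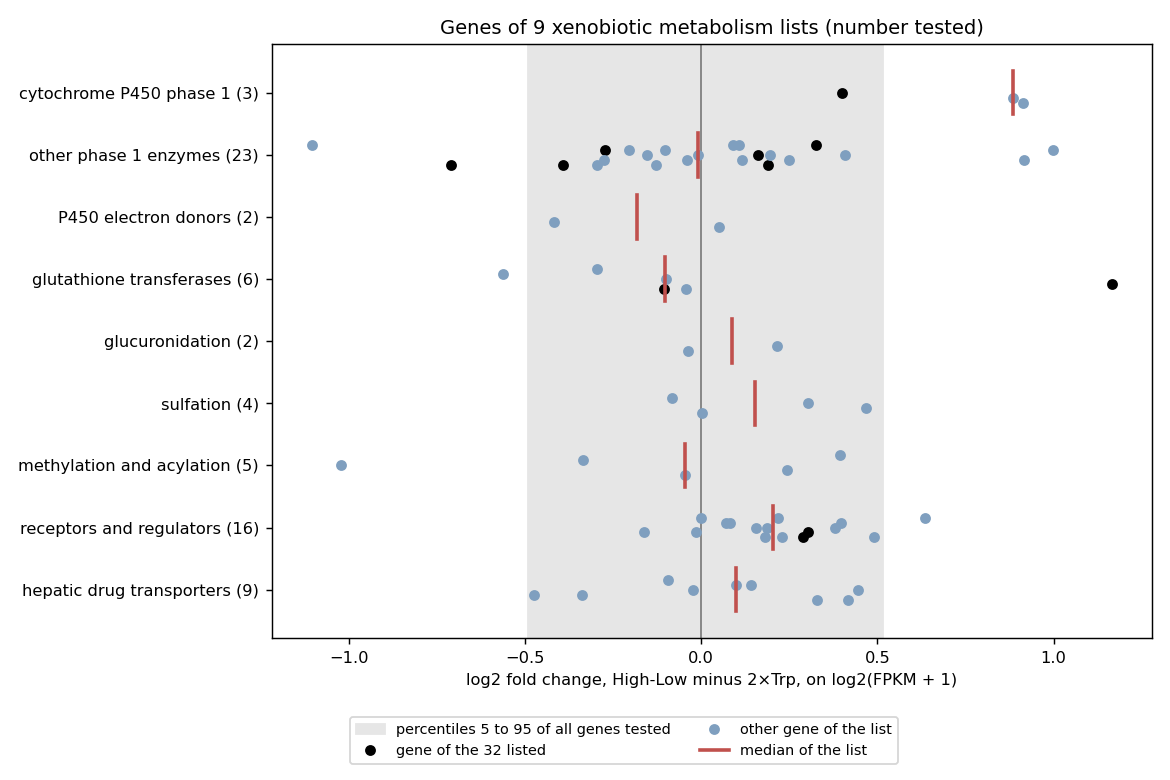
Log2 fold change, High-Low minus 2×Trp on log2(FPKM + 1) (horizontal axis), of the tested genes of 9 xenobiotic metabolism lists (rows, number tested in brackets). Black points are genes of the 32, blue points other genes of each list, red lines list medians, and the grey band percentiles 5 to 95 of all genes tested (-0.49 to 0.52). Receptors and regulators lie mostly right of 0 (14 of 16). EPHX2, NNMT and GSTO2 are among the genes left of the band. GSTM3, PON1, CYP1A1, CYP1A2 and PPARA are among those right of it.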

How the data were processed

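Groups and replicate numbers came from the sample titles. RNA was extracted from frozen liver with Trizol and libraries were made with a TruSeq kit, per the labels' protocols. Per the submitters' processing notes, reads went through TopHat2 2.0.12, Bowtie2 2.2.3 and HTSeq 0.6.1 in an unstated order, with susScr3 as the build. How the final values were computed, on which annotation and with or without strand, is not stated. The values deposited by the authors, in a table for each library, were read as FPKM normalized by the authors to gene length and library size, since they are not whole, have differing totals and stand beside a length. Values multiplied by the listed length showed no steps of whole reads, so depth is unknown.

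The 10901 genes reaching 1 FPKM in 3 or more libraries entered a limma fit (version 3.58.1, R 4.3.3; trend, robust, no covariate) of log2(FPKM + 1) with Benjamini-Hochberg adjustment over all of them and a threshold of 0.05. This scale understates changes of low genes. Symbols came from an Ensembl name table (11804 rows named). Members and lists were chosen with earlier results of these data known. The limma step was checked on 20 simulated data sets with 200 changed genes each, drawn from genes of higher level. It found 32.6% of log2 changes of 1 and 92.9% of changes of 2, with a median of 10 false calls. The adjustment is less strict when many genes change, and only 1 gene was called in the real data. The shares found may thus be too high for these data. Most changes of 2-fold or less may therefore be missed. Named genes are all listed genes with a row, a fixed set of regulators and P450s, and the non-listed gene of smallest p in each of 9 pathway lists; some genes that this rule names are not reported here. ALDH2, GSTO1, FMO2, FMO4, PON1, MAOB, NQO2 and SULT1A3 were named after their values were seen. Permutation tests used scipy 1.17.1 and figures matplotlib 3.10.9 (Python 3.11.15).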

Additional observations from a re-analysis of the deposited data

How the results depend on the processing

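Scaling libraries to equal FPKM sums, to equal sums over nuclear genes (chosen after seeing the data) or by quantiles gave 1 gene lower in High-Low in place of 0, none of them among the 32. Leaving out single libraries gave 1 to 2 genes higher (2 without 2×Trp replicate 3) and 0 lower. Same-numbered libraries correlated only weakly, at -0.22, -0.01 and 0.03, in their deviations from the group means. With 3 libraries per diet this cannot decide whether the replicate numbers pair the libraries. With the number as a replicate block, 1 gene was higher and 0 were lower, and EPHX2 had an unadjusted p of 0.0158 (limma).

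Of the 11 genes, GSTM3, FMO1, EPHX1, EPHX2 and NR1I2 kept their direction in all 14 alternatives. The other 6 turned in at least 1 alternative, each time with a library left out. CYP2E1 ranged from -0.070 to 0.78, GSTA4 from -0.35 to 0.25 and FMO5 from -0.58 to 0.19. NR1I3 ranged from -0.047 to 0.68, ALDH1A1 from -0.30 to 0.62 and AOX1 from -0.014 to 0.55. CYB5A (-0.20 to 0.25) and UGP2 (-0.25 to 0.93) turned as well. AOX1 had no value at a filter of 5 FPKM. The cause was not tested. Without High-Low replicate 2, 623 genes were higher and 789 lower at an unadjusted p under 0.05, in place of 136 and 209.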
